A study of Mus musculus with 6 samples.

Results

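Expression of 10 genes that move calcium in heart muscle cells was followed in 6 mouse hearts: Atp2a2, Pln, Ryr2, Casq2, Slc8a1, Cacna1c, Jph2, Trdn, Hrc and Camk2d. They were chosen by symbol, as genes of the dyad, the sarcoplasmic reticulum and the exchanger. Every probe set that the array annotation assigns to 1 of these symbols and to no other was kept, which gave 34 of the 45101 probe sets on the array. A probe set is a group of short array probes against 1 transcript region, and each gene had between 1 and 7 of them.

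The 6 samples are heart tissue of male mice aged 5 to 6 months and fasted for 6 hours, each on an Affymetrix expression array of its own. Of these, 3 carry the label Cav1KO, a knockout of the caveolin-1 gene, and 3 carry the label WT, wild type. The labels give neither strain nor which cells lack the gene. Each title ends in a number of its own, but no label states that each sample came from a different animal. The p-values cover only the variation among these 6 samples, which may be technical. Each sample is called a heart here.

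In each heartbeat calcium enters a cardiomyocyte through L-type channels in the membrane folds that face the sarcoplasmic reticulum, the cell's calcium store. That entry opens ryanodine receptors in the store across a narrow cleft, the dyad, and the larger release drives contraction. Relaxation follows as the SERCA2 pump returns calcium to the store and the sodium-calcium exchanger carries the rest out of the cell. Caveolin-1 is the coat protein of small membrane pits in endothelial cells, fibroblasts and other cells, while cardiomyocytes mainly use its muscle relative, caveolin-3.

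Cav1 itself was measured as a check of the labels. Its normalised intensity was 118, 101 and 101 in the Cav1KO hearts, against 3853, 3836 and 4216 in the WT hearts. Beside the tissue label, 14 cardiomyocyte markers that hold no calcium cycling member were read. All 14 were bright enough to be tested and none passed in either direction. Their summed intensity ran from 195086 to 198379 in Cav1KO hearts and from 195825 to 199781 in WT hearts. Quantile normalisation gives each rank the same value on every array, which holds the brightest markers close together. Mb, for example, had 21201 in all 3 Cav1KO hearts. The near-equal sums therefore cannot show whether cardiomyocyte content was equal. Values in the text are quantile-normalised intensities unless called deposited, and fold changes are Cav1KO over WT, fitted on log2(intensity + 16). The added 16 shrinks the fold change of dim probe sets.

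None of the calcium cycling genes passed the test in Cav1KO hearts. Of the 34 probe sets, 29 lay in the brighter 50% of the array and were tested, and 0 of these 29 reached an adjusted p of 0.05 (limma, Benjamini-Hochberg over 22519 probe sets), where 3.17% of all tested probe sets did. The lowest adjusted p among them was 0.058, that of Hrc. At an unadjusted limma p of 0.05, 6 of the 29 passed (20.7%), against 20.0% of all tested probe sets. Of those 6, 5 were lower in Cav1KO hearts (17.2% of the 29, against 9.75% array-wide) and 1 was higher.

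The differences were small as well as short of the threshold. The median log2 fold change of the 29 was -0.015, beside -0.0096 over all tested probe sets, and the median size regardless of sign was 0.034, beside 0.086. Many members are among the brighter probe sets, and no comparison with probe sets of like brightness was made. With the brightest probe set of each gene the log2 fold changes ran from -0.13 for Hrc to 0.11 for Camk2d, 5 below and 5 above 0. The 95% intervals of these 10 values, taken one at a time, reached at most 14.4% lower (Cacna1c) and 26.8% higher (Camk2d).

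**Figure D1:**
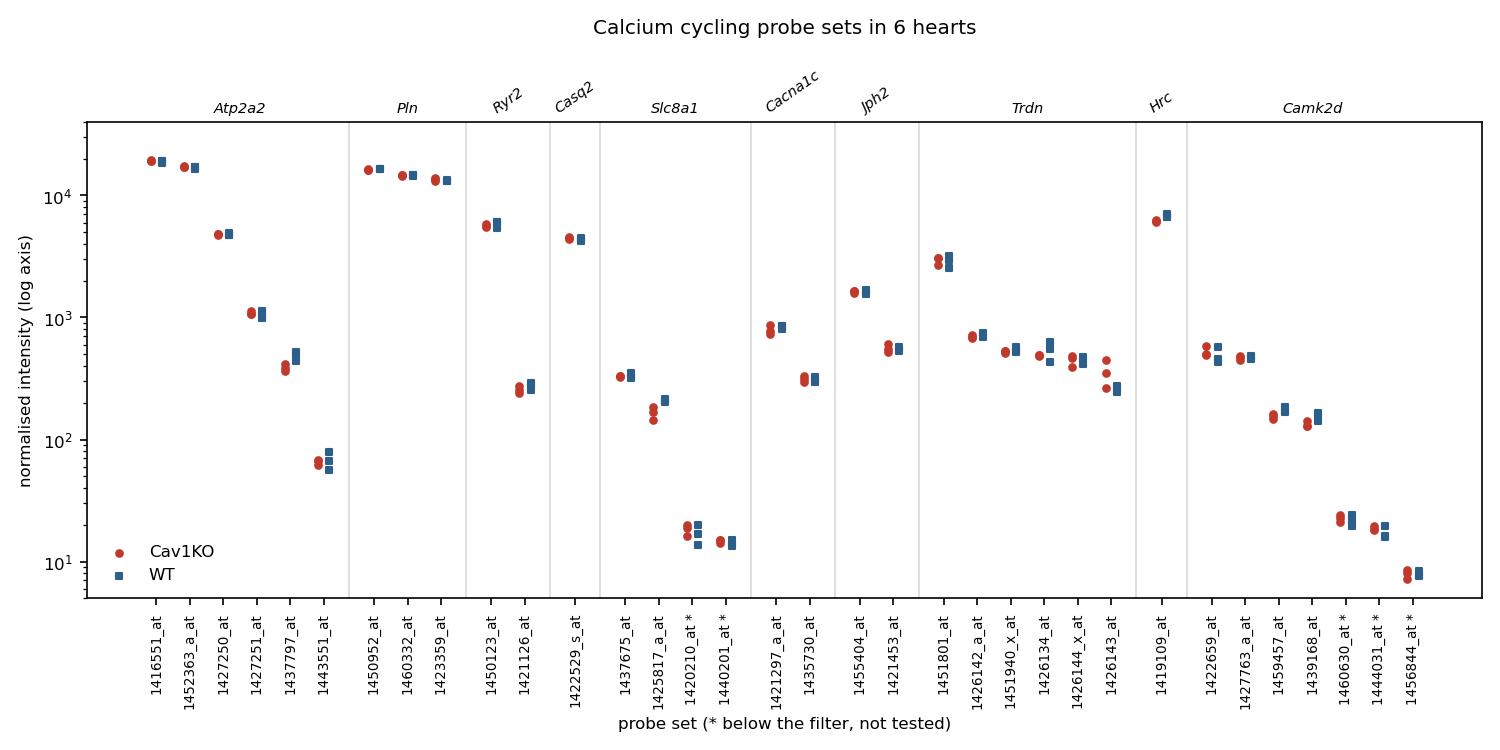
Normalised intensity (log axis) of all 34 calcium cycling probe sets, grouped by gene and ordered from bright to dim, with 1 point per heart: Cav1KO circles left, WT squares right. The points run from 7.19 to 19372, and the groups do not overlap at 5 of the 29 tested probe sets. Another 5 probe sets, marked with an asterisk, were too dim to be tested.

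The calcium pump and its inhibitor were measured most brightly. Atp2a2 encodes SERCA2, the pump that refills the store, and Pln encodes phospholamban, a small protein that slows the pump until it is phosphorylated. The brightest Atp2a2 probe set, 1416551_at, had deposited intensities of 19020, 19449 and 19039 in Cav1KO hearts, against 18744, 18940 and 19055 in WT hearts. The groups overlap. In the fit to normalised intensities its log2 fold change was 0.019 (SE 0.022, limma adjusted p = 0.644), with a 95% interval from 2.08% lower to 4.83% higher. In the fit to the deposited intensities it was also 0.019 (SE 0.019, limma adjusted p = 0.589).

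The second Atp2a2 probe set, 1452363_a_at, had deposited intensities of 17364, 17298 and 17504 in Cav1KO hearts and 16571, 17257 and 16888 in WT hearts. All 3 Cav1KO hearts lay above all 3 WT hearts here as deposited, but not after normalisation, and neither fit passed (limma adjusted p = 0.327 as deposited and 0.616 normalised). The next probe sets, 1427250_at and 1427251_at, had normalised log2 fold changes of -0.0043 and 0.033 with overlapping groups.

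One Atp2a2 probe set stood apart from the others. At 1437797_at the Cav1KO hearts had 385, 366 and 418, and the WT hearts had 520, 501 and 440. All 3 Cav1KO hearts were lower than all 3 WT hearts, with a log2 fold change of -0.31 (SE 0.075, 19.2% lower), and the difference fell short of the threshold (limma adjusted p = 0.067). It passed with only the brightest 25% of probe sets tested, at an adjusted p of 0.0441, and stayed above 0.05 in the other 15 alternatives run. The 4 brighter probe sets of the same gene lay between -0.0043 and 0.033, and the dimmest, 1443551_at, at -0.024. The stretch of transcript that each probe set reads was not analysed here.

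All 3 probe sets of Pln were bright and flat. The brightest, 1450952_at, had deposited intensities of 16278, 16636 and 16299 in Cav1KO hearts, against 16606, 16695 and 16506 in WT hearts. In the fit to normalised intensities its log2 fold change was -0.016 (SE 0.022, limma adjusted p = 0.707), with a 95% interval from 4.35% lower to 2.33% higher. In the fit to the deposited intensities it was -0.017 (SE 0.019, limma adjusted p = 0.639). The other probe sets, 1460332_at and 1423359_at, stood at -0.0027 and 0.034 after normalisation, with limma adjusted p of 0.957 and 0.478.

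These 5 probe sets, the brighter pair of Atp2a2 and the 3 of Pln, ranked among the 100 brightest of every array. Quantile normalisation gives each rank the same value on every array, and the brightest Atp2a2 probe set therefore took only 3 distinct normalised values across the 6 hearts. The deposited intensities are given for them for this reason. In the fit to the deposited intensities the log2 fold changes of these 5 lay between -0.017 and 0.041 and none passed. Normalised, the brightest Atp2a2 probe set stood at 83.6% to 87.0% of the highest value on its array, and whether the scale is compressed there was not tested.

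The balance of inhibitor to pump was compared within each heart. The log2 level of Pln minus that of Atp2a2, at the brightest probe set of each, was -0.232, -0.228 and -0.232 in Cav1KO hearts, against -0.200, -0.172 and -0.218 in WT hearts. All 3 Cav1KO hearts lay lower, with a difference of -0.034, and the exact two-sided permutation test gave p = 0.1, the smallest that 3 hearts against 3 allow. These normalised levels hold ties: Cav1KO replicates 1 and 3 share the same value for each gene. As deposited the values were -0.224, -0.225 and -0.224 in Cav1KO hearts, against -0.175, -0.182 and -0.207 in WT hearts. The difference was then -0.037 (p = 0.1, same exact test). It turned to 0.049 when the mean over all tested probe sets of each gene was used, a mean that includes Atp2a2 probe set 1437797_at.

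**Figure D2:**
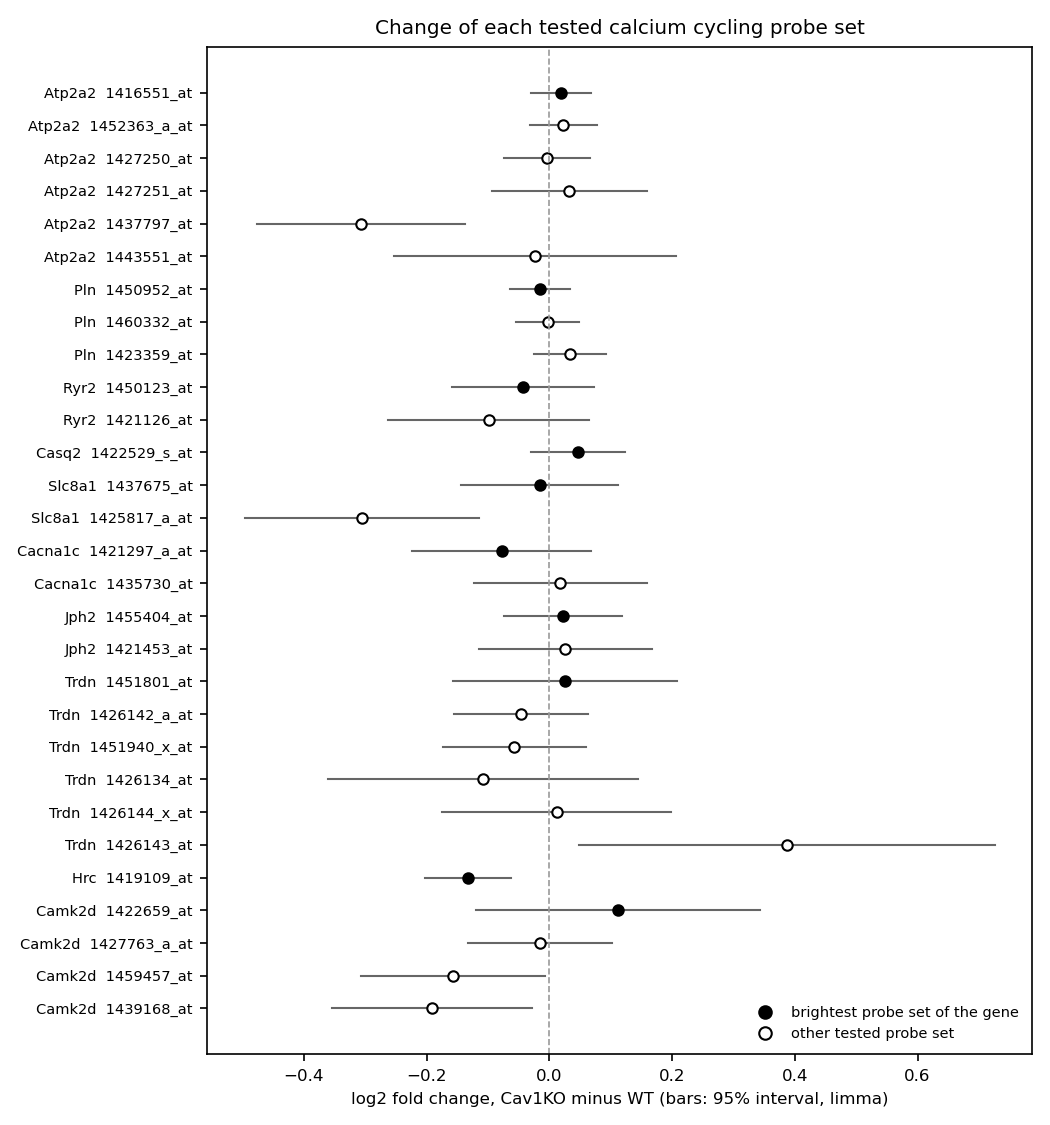
Log2 fold change of the 29 tested calcium cycling probe sets, Cav1KO minus WT, with 95% intervals from limma; filled circles mark the brightest probe set of each gene. The brightest probe sets lie between -0.13 and 0.11, and 6 intervals leave out 0, those of Hrc, Atp2a2 1437797_at, Slc8a1 1425817_a_at, Trdn 1426143_at and a pair of Camk2d.

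The genes of the calcium release unit gave the value closest to the threshold, that of Hrc. Hrc encodes the histidine-rich calcium-binding protein of the store lumen, which binds both triadin and SERCA2. Its 1 probe set, 1419109_at, had 6313, 6132 and 6109 in Cav1KO hearts, against 6989, 6663 and 6692 in WT hearts. The groups did not overlap, and the means were 6185 ± 111 in Cav1KO hearts and 6782 ± 181 in WT hearts (SD, n = 3 each). The log2 fold change was -0.13 (SE 0.031, limma adjusted p = 0.058), or 8.77% lower, with a 95% interval from 13.1% to 4.23% lower.

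The call on Hrc depended on the setting. It passed with the intensities as deposited (limma adjusted p = 0.0434), with the brightest 25% of probe sets (0.0340) and with array weights (0.0446). It did not pass in the other 13 alternatives, with adjusted p up to 0.235, and the log2 fold change lay between -0.18 and -0.11 in all 16. Fat markers, whose values are given further on, had a median log2 fold change of -1.65 in the same hearts. With their mean per heart as a covariate, an alternative chosen after seeing the data, the log2 fold change of Hrc was -0.18 and the limma adjusted p 0.235. That mean itself differs between the groups, so the fit cannot tell fat content from genotype.

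Ryr2 encodes the ryanodine receptor of cardiomyocytes, the channel through which the store empties. Its bright probe set, 1450123_at, had 5481, 5889 and 5605 in Cav1KO hearts, against 6069, 6069 and 5373 in WT hearts. The groups overlap, the lowest of the 6 values being WT, and the log2 fold change was -0.043 (SE 0.051, limma adjusted p = 0.656). The 95% interval ran from 10.4% lower to 5.17% higher. A dim probe set, 1421126_at, had a log2 fold change of -0.099 with an adjusted p of 0.462.

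Casq2 encodes cardiac calsequestrin, the protein that holds most of the calcium inside the store. Its 1 probe set, 1422529_s_at, had 4607, 4501 and 4436 in Cav1KO hearts, against 4344, 4256 and 4507 in WT hearts. The highest WT heart lay above 2 of the Cav1KO hearts. The log2 fold change was 0.047 (SE 0.034, limma adjusted p = 0.450), with a 95% interval from 2.00% lower to 8.95% higher.

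Trdn encodes triadin, which ties calsequestrin to the ryanodine receptor and is made in several spliced forms. Its brightest probe set, 1451801_at, had 3080, 2709 and 3077 in Cav1KO hearts and 3211, 2957 and 2566 in WT hearts. The ranges overlap almost wholly, and the log2 fold change was 0.025 (SE 0.081, limma adjusted p = 0.881). Probe sets 1426142_a_at, 1451940_x_at and 1426144_x_at had log2 fold changes of -0.046, -0.057 and 0.012 with overlapping groups (limma adjusted p of 0.610, 0.551 and 0.949).

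Probe set 1426143_at of Trdn had the largest difference among the members, and 1 heart set much of it. The Cav1KO hearts had 448, 267 and 349, against 277, 246 and 263 in the WT hearts. Cav1KO replicate 1 and replicate 3 lay above every WT heart, while replicate 2 lay within the WT range. As deposited all 3 lay above, with 461, 277 and 351 in Cav1KO hearts and 254, 251 and 258 in WT hearts (limma adjusted p = 0.150). After normalisation the log2 fold change was 0.39 (SE 0.15, limma adjusted p = 0.200), and without Cav1KO replicate 1 it was 0.21 with an adjusted p of 0.457. At probe set 1426134_at the hearts spread the other way: 487, 491 and 489 in Cav1KO hearts, against 430, 548 and 625 in WT hearts. The Cav1KO values there sit inside the WT range, with a log2 fold change of -0.11 (limma adjusted p = 0.604).

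Jph2 encodes junctophilin-2, which holds the store membrane close to the cell membrane and so builds the dyad. Its brighter probe set, 1455404_at, had 1662, 1597 and 1651 in Cav1KO hearts, against 1590, 1563 and 1683 in WT hearts. The groups overlap, with a log2 fold change of 0.022 (SE 0.043, limma adjusted p = 0.797). The second probe set, 1421453_at, gave 0.026, and its 95% interval ran from 7.65% lower to 12.3% higher.

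Calcium entry and exit showed no passed change either. Cacna1c encodes the pore of the main cardiac L-type channel. Its brighter probe set, 1421297_a_at, had 731, 778 and 871 in Cav1KO hearts, against 810, 851 and 847 in WT hearts. The highest and the lowest of the 6 hearts were both Cav1KO, and the log2 fold change was -0.078 (SE 0.065, limma adjusted p = 0.517). At 1435730_at the log2 fold change was 0.018, with an adjusted p of 0.892.

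Slc8a1 encodes NCX1, the exchanger that removes calcium from the cardiomyocyte in return for sodium. Its brighter probe set, 1437675_at, had 335, 329 and 324 in Cav1KO hearts and 353, 319 and 329 in WT hearts. The log2 fold change was -0.016 (SE 0.056, limma adjusted p = 0.894), with a 95% interval from 9.46% lower to 8.05% higher. As deposited all 3 Cav1KO hearts lay above the WT hearts, with 343, 343 and 327 against 325, 326 and 326, and that fit did not pass (limma adjusted p = 0.653).

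The dimmer Slc8a1 probe set ran lower. At 1425817_a_at the Cav1KO hearts had 167, 145 and 186, against 215, 205 and 203 in the WT hearts. All 3 Cav1KO hearts lay below every WT heart, with a log2 fold change of -0.31 (SE 0.084, 19.1% lower) and a limma adjusted p of 0.0943. It passed in none of the 16 alternatives, where the log2 fold change ran from -0.38 to -0.22. The other 2 Slc8a1 probe sets lay between 13.4 and 19.9 in all 6 hearts and were not tested.

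The level of Slc8a1 relative to Atp2a2 was also compared within each heart, since the exchanger and the pump compete for the same calcium in relaxation. At the brightest probe sets the log2 difference was -5.77, -5.81 and -5.81 in Cav1KO hearts, against -5.69, -5.80 and -5.79 in WT hearts. The groups overlap, with a change of -0.035 (exact two-sided permutation p = 0.5), and the sign turned with the intensities as deposited, at 0.032 (p = 0.3, same exact test).

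Camk2d encodes the delta form of calcium/calmodulin-dependent kinase II, which phosphorylates phospholamban, the ryanodine receptor and the L-type channel. Its brightest probe set, 1422659_at, had 496, 504 and 579 in Cav1KO hearts, against 432, 573 and 460 in WT hearts. The groups overlap and the log2 fold change of 0.11 had an SE of 0.10 (limma adjusted p = 0.557). A second probe set of nearly the same brightness, 1427763_a_at, stood at -0.015.

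The dim probe sets of Camk2d were lower and did not pass. At 1459457_at the Cav1KO hearts had 163, 147 and 155, against 172, 184 and 168 in WT hearts, a log2 fold change of -0.16 (limma adjusted p = 0.231). At 1439168_at the Cav1KO hearts had 130, 130 and 142, against 143, 160 and 163 in WT hearts, a log2 fold change of -0.19 (limma adjusted p = 0.192). Neither pair of groups overlaps on this scale, and both overlap as deposited. The remaining 3 probe sets of Camk2d lay between 7.19 and 23.9 and were not tested.

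**Figure D3:**
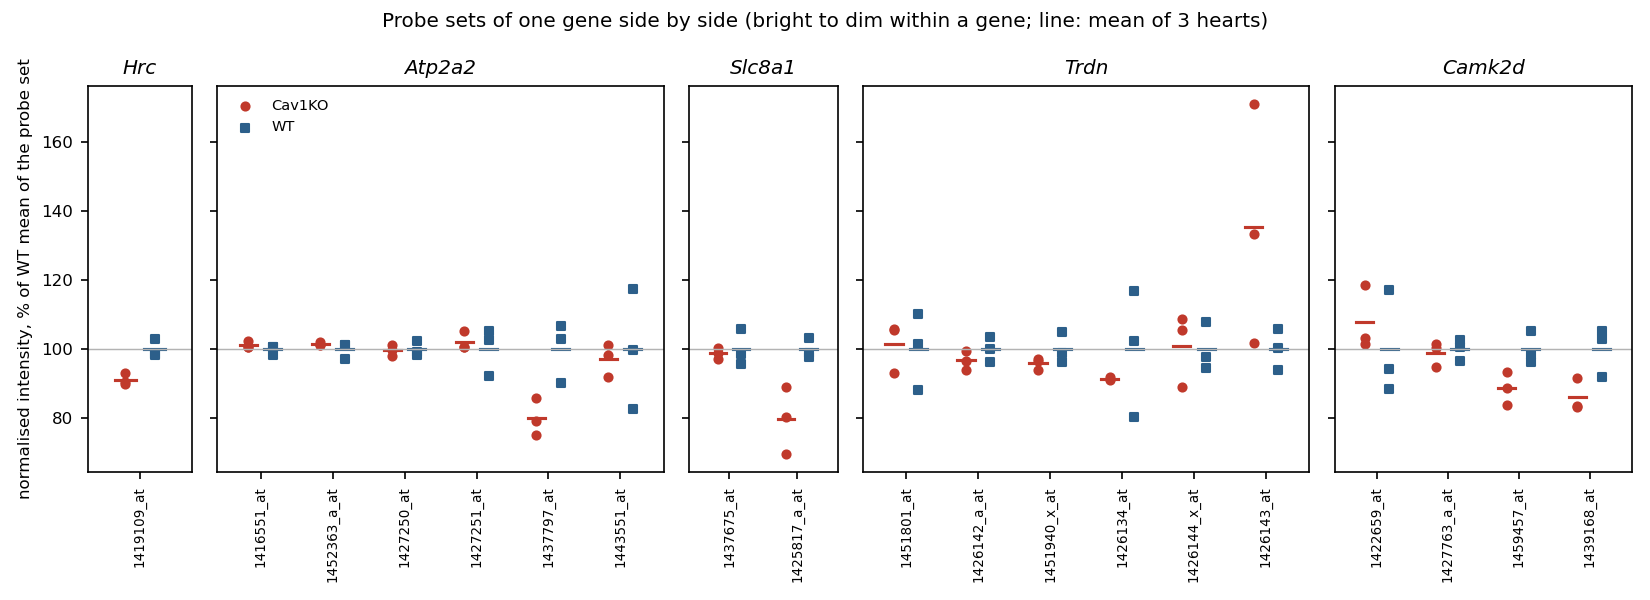
Normalised intensity of each tested probe set as a percentage of its WT mean, for Hrc, Atp2a2, Slc8a1, Trdn and Camk2d; points are hearts (Cav1KO circles left, WT squares right) and short lines are means of 3. Within Atp2a2, Slc8a1 and Camk2d the groups overlap at the brightest probe set, while 1437797_at, 1425817_a_at, 1459457_at and 1439168_at lie below it in every Cav1KO heart.

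Probe sets of the same gene thus differed in what they showed. After normalisation, groups that did not overlap were found at 5 of the 29 tested probe sets, in 4 genes, all with the Cav1KO hearts lower. That is 17.2% of the 29, against 26.3% of all tested probe sets in either direction and 14.0% with the Cav1KO hearts lower. As deposited the direction was mixed: 3 of the 29 were lower in Cav1KO hearts without overlap (Hrc, Atp2a2 1437797_at and Slc8a1 1425817_a_at), where 7.10% array-wide were, and 3 were higher (Atp2a2 1452363_a_at, Slc8a1 1437675_at and Trdn 1426143_at), where 16.4% were. Apart from Hrc, the 5 found after normalisation were dimmer probe sets of genes whose brightest probe set overlapped on that scale. Probe sets of 1 gene may read the same transcripts, which was not analysed, so they are not taken as separate evidence for a change.

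The spread between hearts of 1 group was small for these genes. The median SD within a group, on the log2 scale, was 0.070 for the 29 probe sets, beside 0.084 over all tested probe sets. The members were not compared with probe sets of like brightness, and the brightest of Atp2a2 and Pln hold tied values after normalisation. The lower spread is therefore not shown to be particular to these genes. Averaged over the brightest probe set of each of the 10 genes, the hearts deviated from their common mean by -0.012, -0.019 and 0.022 in Cav1KO hearts, and by 0.015, 0.019 and -0.024 in WT hearts. The groups overlap throughout.

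Markers of other cell types did differ between the groups in the same RNA. Of 10 endothelial markers 4 rose, of 10 fibroblast markers 4 rose and of 10 macrophage markers 5 rose, and none of the 30 fell. Among all 11486 genes taken at their brightest probe set, 4.02% passed. Over all tested probe sets, 531 passed with the Cav1KO hearts higher and 183 with them lower. The 3 lists had medians of 0.18, 0.29 and 0.32 on the log2 scale. The summed intensity of the macrophage markers ran from 5960 to 6204 in Cav1KO hearts and from 4535 to 5181 in WT hearts. Endothelial markers summed to 6156 to 6993 in Cav1KO hearts and 5145 to 5430 in WT hearts, and fibroblast markers to 17230 to 20518 in Cav1KO hearts and 14252 to 16191 in WT hearts. In bulk tissue, more cells of a type and more RNA per cell cannot be told apart. Centred on the 14 cardiomyocyte markers, 0 of the 29 member probe sets passed and 5 had an unadjusted limma p under 0.05. This centring followed quantile normalisation, which already holds the brightest markers close together. It moved the log2 fold change of Atp2a2 1416551_at only from 0.019 to 0.028, and it cannot show whether cell content differed.

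Fat markers varied between hearts of 1 group. Of the 6 tested adipocyte markers none passed, though 5 had an unadjusted limma p under 0.05, and Cidec and Lep were too dim to be tested. Ucp1, the uncoupling protein of brown fat, had 20.9, 20.7 and 106 in Cav1KO hearts, against 83.2, 314 and 802 in WT hearts. The summed adipocyte markers ran from 1187 to 2522 in Cav1KO hearts and from 2126 to 6164 in WT hearts. With their mean log2 level as a covariate, 0 of 29 member probe sets passed and 2 had an unadjusted limma p under 0.05. Relative to the mean of all hearts, that level was -1.05, -1.11 and 0.081 in Cav1KO hearts, against -0.086, 0.70 and 1.46 in WT hearts. The covariate differs between the groups, so this fit cannot tell fat content from genotype. The part of fat in the lower values of Hrc and of the dim member probe sets was not tested. Smooth muscle and pericyte markers (18902 to 19134 in Cav1KO hearts, 18322 to 18849 in WT hearts) and atrial markers (28821 to 33239 in Cav1KO hearts, 30336 to 36446 in WT hearts) had no member that passed. Of the skeletal muscle markers, Myh1, Myh2, Myh4, Tnnt3, Tnnc2 and Pvalb were too dim to be tested, and none of the other 4 passed. The summed intensity of all 10 ran from 4498 to 7949 in Cav1KO hearts and from 3788 to 4803 in WT hearts. Most of it was Acta1, skeletal alpha-actin, which heart muscle also makes, with 7608, 6469 and 4149 in Cav1KO hearts, against 3679, 3440 and 4457 in WT hearts (log2 fold change 0.62, limma adjusted p = 0.126, unadjusted p = 0.0104).

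**Figure D4:**
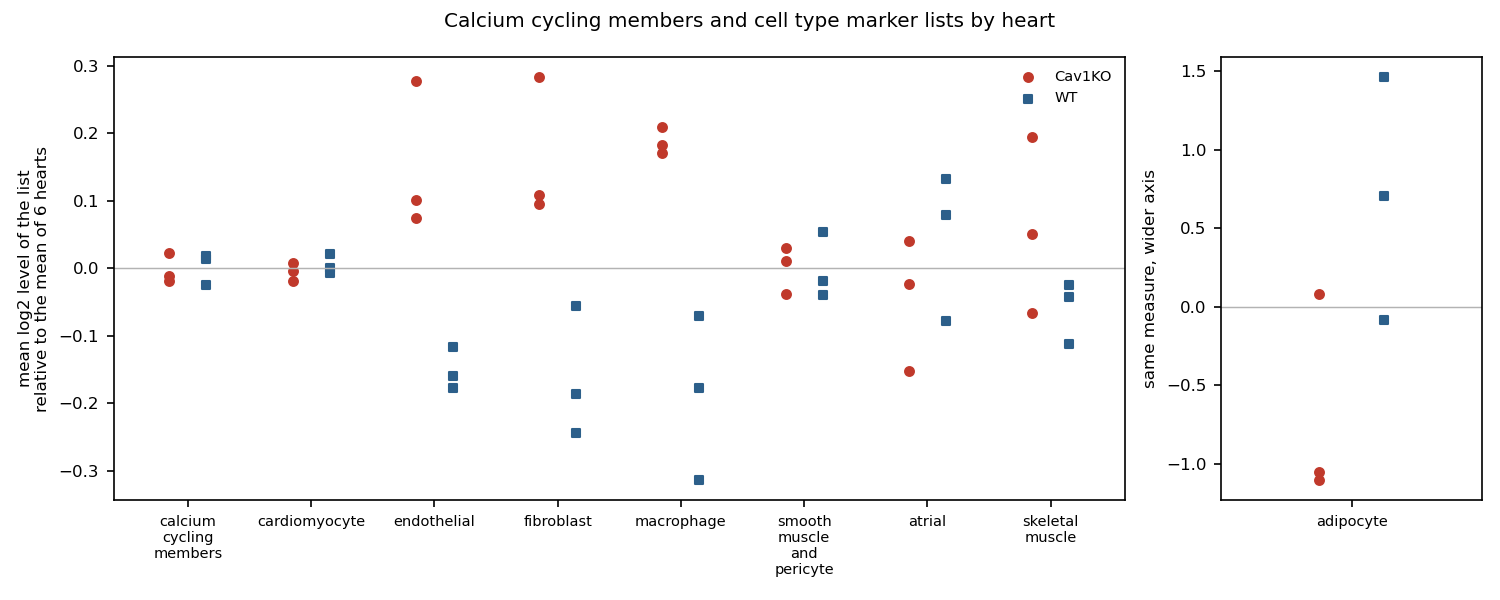
Mean log2 level of the calcium cycling members and of each cell type marker list, relative to the mean of the 6 hearts (Cav1KO circles left, WT squares right; the adipocyte list has its own, wider axis). The calcium cycling members stay within 0.024 of the common mean in every heart, and the endothelial, fibroblast and macrophage lists lie higher in all 3 Cav1KO hearts.

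Beyond the 10 members, 100 other genes of calcium handling were counted in 7 lists, with the brightest probe set of each gene. Among them 89 had a probe set with 1 symbol and 75 were tested; 3 rose, 1 fell and 71 did not pass. That is set against 4.02% of the 11486 genes tested in this way, and against 531 rises and 183 falls over all tested probe sets. The median log2 fold change of the 75 was -0.027, beside -0.014 over all 11486.

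Atp2a3, which encodes the SERCA3 pump of endothelial and blood cells, had the lowest adjusted p of them at the brightest probe sets. It had 295, 372 and 350 in Cav1KO hearts, against 210, 168 and 191 in WT hearts, a log2 fold change of 0.79 (SE 0.10, limma adjusted p = 0.00488). The call held when any 1 heart was left out and ended with the adipocyte covariate, which itself differs between the groups. Its second probe set rose too, by 0.46 (limma adjusted p = 0.0425). Endothelial and macrophage markers rose in the same hearts, and their part in this rise was not tested. The pump inhibitor Sln, sarcolipin, is also on the atrial marker list. It had 4020, 3571 and 4157 in Cav1KO hearts, against 4844, 3804 and 5213 in WT hearts, with overlapping groups (log2 fold change -0.23, limma adjusted p = 0.267). Sln passed only when WT replicate 2 was left out, and the part of atrial tissue in its values was not tested. Mrln, the pump micropeptide myoregulin, and Atp2a1, the fast-muscle pump, stood at -0.22 and -0.082 and did not pass.

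Among 15 tested partners and relatives of the release channel Fkbp1a rose and 14 did not pass. Fkbp1a encodes FKBP12, an immunophilin that binds ryanodine receptors and many other proteins. It had 2233, 2223 and 2088 in Cav1KO hearts, against 1872, 1869 and 1924 in WT hearts, a rise of 0.21 (SE 0.040, limma adjusted p = 0.0310), and 2 of its 4 tested probe sets passed. Itpr2, an inositol trisphosphate receptor, stood at 0.32 (limma adjusted p = 0.0735), Tmem38a, a potassium channel of the store, at -0.18 (0.103) and Jph4 at -0.28 (0.176). Fkbp1b, the close relative of Fkbp1a, was too dim to be tested, with 40.0, 43.4 and 44.5 in Cav1KO hearts and 31.5, 35.6 and 37.9 in WT hearts.

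Among 7 tested subunits and regulators of the L-type channel Ahnak rose and 6 did not pass. Ahnak encodes a very large scaffold protein found in many cell types. It had 2929, 3042 and 3301 in Cav1KO hearts, against 2663, 2661 and 2601 in WT hearts, a rise of 0.22 (SE 0.046, limma adjusted p = 0.0391), and 1 of its 4 tested probe sets passed. Cacnb2, the main beta subunit of the cardiac channel, had 500, 525 and 608 in Cav1KO hearts, against 686, 710 and 623 in WT hearts. Its groups did not overlap, with a log2 fold change of -0.30 (SE 0.079, limma adjusted p = 0.0822), and the second probe set lay alongside at -0.33 (0.0721). Cacna2d1 and Cacna2d2, accessory subunits, stood at -0.11 and -0.17 and did not pass.

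Of 22 tested kinases and phosphatases Ppp1cb fell and 21 did not pass. Ppp1cb encodes a catalytic subunit of protein phosphatase 1, which removes phosphate from phospholamban and other proteins. Its brightest probe set had 2576, 2550 and 2624 in Cav1KO hearts, against 2985, 3109 and 2843 in WT hearts, a log2 fold change of -0.20 (SE 0.040, limma adjusted p = 0.0336). A dimmer probe set of the gene rose by 1.09 (limma adjusted p = 0.000579), so Ppp1cb has no single direction here. The calls on Fkbp1a, Ahnak and Ppp1cb rest on 6 hearts together: with 1 heart left out, Fkbp1a passed only without Cav1KO replicate 3, Ppp1cb only without WT replicate 3, and Ahnak in none of the 6 fits. Prkar1a, a regulatory subunit of protein kinase A, stood at 0.13, Pde3a, a phosphodiesterase, at -0.25 and Ppp3ca, a catalytic subunit of calcineurin, at 0.18, with limma adjusted p of 0.0765, 0.0789 and 0.104.

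No gene of the remaining lists passed. In the list of plasma membrane extrusion and store-operated entry, 8 genes were tested and Stim2, a calcium sensor of the store, came nearest at 0.32 (limma adjusted p = 0.0865), followed by Atp2b1 at 0.14, Stim1 at -0.15 and Orai2 at 0.086. In the mitochondrial list, 10 genes were tested, and Mcu, the uniporter pore, stood at -0.17 (limma adjusted p = 0.189), Smdt1 at -0.11, Letm1 at -0.12 and Mcur1 at -0.076. In the list of endoplasmic reticulum and myofilament genes, 9 were tested. Mylk3, a cardiac myosin kinase, stood at -0.18 (limma adjusted p = 0.0780), Hsp90b1 at 0.24, Canx at 0.097 and Calr at 0.051.

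**Figure D5:**
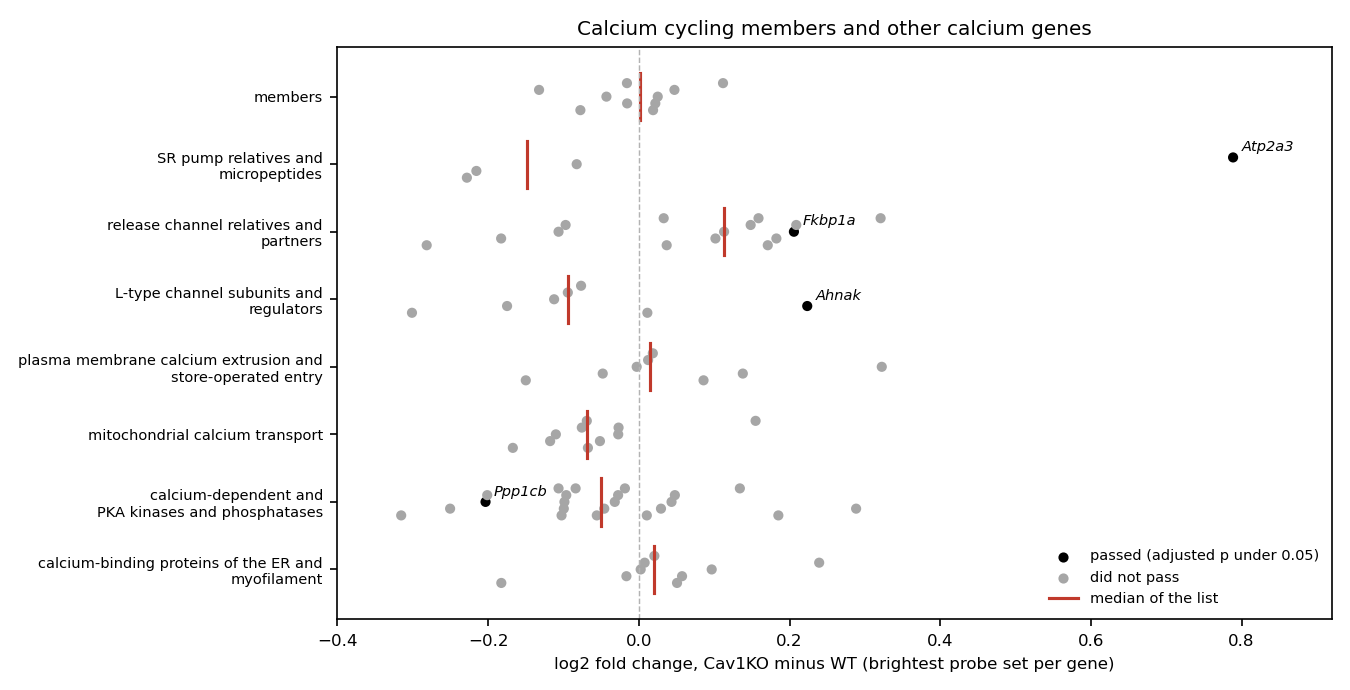
Log2 fold change, Cav1KO minus WT, of the brightest probe set of each tested gene, for the 10 members and 7 lists of other calcium genes; black points passed, grey points did not, and red lines are list medians. The members span -0.13 to 0.11, and the 4 genes that passed are Atp2a3, Fkbp1a, Ahnak and Ppp1cb.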

How the data were processed

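The authors deposited 1 intensity on a linear scale per probe set and array. Total RNA was labelled by the One-Cycle method, per the labels' protocols, and the submitters' processing notes name GCOS 1.4 without saying what it did. For summarisation, background correction and scaling no method is stated in the labels. Median deposited intensities of the 6 arrays lay between 43.9 and 45.8, and the number of arrays limits the precision. Summed deposited intensities ran from 1.17e+07 (WT replicate 1) to 1.24e+07 (Cav1KO replicate 2). Over all tested probe sets the median log2 fold change was 0.032 as deposited, beside -0.0096 after normalisation.

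Here the 64 control probe sets were left out, the other 45037 were quantile normalised and fitted as log2(intensity + 16), and the 22519 in the upper 50% by mean were tested with limma 3.58.1 in R 4.3.3 (lmFit, eBayes with a trend, Cav1KO minus WT, no covariate). The threshold was a Benjamini-Hochberg adjusted p of 0.05. Names came from the platform annotation of 2016, updated through the RefSeq table of GRCm38.p6, in which 34741 of the 34945 probe sets with 1 symbol were matched. The limma step was tested on simulated data.

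All probe sets of the 10 members are described. From each list of other calcium genes every gene that passed and up to 4 with the smallest p are named; other genes named (Fkbp1b, Cav1, Ucp1, Acta1 and the dim markers) were chosen for the check of labels or after their values were seen. The members and lists were chosen with earlier results of these data known.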

Additional observations from a re-analysis of the deposited data

How the results depend on the processing

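In 16 alternatives, no more than 2 of the tested member probe sets passed: 1 with the intensities as deposited and 1 with array weights (Hrc in both), 2 with the upper 25% of probe sets (Hrc and Atp2a2 1437797_at), and 0 in the other 13. Of 461 member values under the alternatives 49 changed sign, at 17 of the 29 probe sets; none of these had passed. The array-wide count of 714 moved to 411 without a trend, 1171 with array weights and 32 with the mean adipocyte marker level as a covariate, an alternative added afterwards, and ran from 189 to 749 when 1 heart was left out: 189 without Cav1KO replicate 1, 227 without Cav1KO replicate 2, 299 without WT replicate 3 and 470 without WT replicate 1. The count of 4 other calcium genes became 2 with median centring, 2 without a filter, 2 with the mean of a gene's tested probe sets, 1 without a trend, 9 with array weights (Itpr2, Tmem38a, Pde3a, Prkar1a and Mylk3 passing besides the 4) and 0 with the adipocyte covariate (limma, 14 at an unadjusted p under 0.05); with 1 heart left out it ran from 1 to 3, Atp2a3 was among them each time, and Cacnb2, Mylk3, Prkar1a and Sln passed once each. The change of Slc8a1 relative to Atp2a2 was 0.032 as deposited and -0.12 with the mean of tested probe sets, and that of Pln was 0.049 with the mean. The causes were not tested. No title pairs a Cav1KO heart with a WT heart, so the groups were compared unpaired.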
